A study of Mus musculus with 11 samples.

Results

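Claudins are the membrane proteins that form the strands of tight junctions. Here 10 claudin genes of the mouse cochlear duct, Cldn3, Cldn4, Cldn6, Cldn7, Cldn8, Cldn9, Cldn11, Cldn12, Cldn14 and Cldn19, were followed by symbol through the normalized single cell tables of 4 ages, out of 24898 genes that have a row at any age. They were chosen by name and not by a cutoff on a measured value, though with earlier results of these data known. All 10 have a row at every age, and 18 or 19 claudin rows were present at each age. Cells came from wild-type CD1 mice of either sex, and each library pooled the cochlear ducts of several animals, so that the libraries are the replicates. The ages had 2 (E14), 3 (E16), 4 (P1) and 2 (P7) libraries, the last labelled as replicates 4 and 5. The ducts were freed with thermolysin, the roof and lateral wall were largely dissected away, and single cells were captured with a 10x Chromium 3′ kit. No mutant and no treatment was part of these samples.

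Tight junctions of the cochlear duct separate the potassium-rich endolymph above the epithelium from the perilymph below it, and the barrier is needed for hearing. Strands are polymers of claudins, and different claudins make strands that are tighter or that pass particular ions. Occludin and tricellulin sit in the same junctions, and the angulins Lsr and Ildr1 mark the corners where 3 cells meet. Loss of CLDN14 or CLDN9 causes deafness in people or mice, and Cldn11 makes the tight junctions of the basal cells of the stria vascularis and of myelin.

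Cell groups were gated by how many of a fixed list of marker genes a cell had a UMI (unique molecular identifier, 1 captured transcript) for, and no claudin or tight junction gene was in any list. Hair cells (HCs) had at least 6 of 16 markers, which gave 38 E14 cells, 551 E16 cells, 1035 P1 cells and 248 P7 cells. They were compared with the other floor epithelium, which is every cell outside the HC, Oc90-positive roof, glial, mesenchymal and blood gates. No epithelial marker was required of these cells, and cells of no gate were among them. A gated group is a range and not a clean class, and how many cells lay near a cutoff differed widely between gates. At P1 12 cells lay 1 marker below the HC cutoff and 9 at it, against 1060 that passed before cells of several gates were assigned, while at E14 these numbers were 11, 15 and 53. At P7 28 cells lay 1 marker below the pillar and Deiters cutoff and 32 at it, against 199 passing. For the mesenchymal gate, whose cells were left out of the floor, these P7 numbers were 398, 140 and 233. For lateral nonsensory cells there were 301 below, 151 at and 205 passing at E14, 225, 91 and 196 at E16, and 391, 204 and 460 at P1. For lateral prosensory cells the numbers were 201, 113 and 231 at E14 and 285, 214 and 467 at E16. For KO cells, the group that supporting and lateral cells were compared with, E14 had 697 below, 640 at and 2000 passing, E16 had 776, 943 and 4418, P1 had 634, 1046 and 11292, and P7 had 586, 750 and 1671. At P7 the floor cells of no gate held 70.2% and 70.5% of the KO marker level of KO cells, so that KO cells were poorly set apart at this age. HCs had a median of 15 of their 16 markers at P1 and 11 at P7, while pillar and Deiters cells had 1 and 2 of these. The further groups were inner and outer hair cells (IHCs, OHCs), pillar and Deiters cells at P1 and P7, inner phalangeal cells, Kölliker's organ (KO) cells, interdental cells, lateral prosensory cells at E14 and E16, lateral nonsensory cells up to P1, roof cells, and glia at P7. The libraries held 1247 to 5598 cells each, with 3828399 to 23523802 UMIs in all and a median of 2478 to 5647.5 UMIs per cell. Libraries of an age shared 9 to 84 cell barcodes. E16 replicate 3 stood apart from the other E16 libraries for Cldn3, Cldn4 and Cldn6, at a higher level in the floor as a whole. Levels are in CPM, the part of each cell's UMIs that came from the gene, averaged over cells and given per 1000000 UMIs. The 3′ kit counts transcript ends, so levels of different genes were compared without dividing by length.

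Of the members, 4 lie in close pairs. On GRCm38, Cldn3 (chr5:134986214-134987472, plus strand) and Cldn4 (chr5:134945119-134946934, minus strand) are genes of 1 exon each, 39279 bases apart with no annotated gene between them. Cldn6 (chr17:23679249-23682446, plus strand) and the 1-exon gene Cldn9 (chr17:23682584-23684026, minus strand) point towards each other with 137 bases between their ends. Whether counting used strand is not given in the sources used here, so reads of Cldn6 and Cldn9 that run past their ends could be shared between them. Cldn14 spans chr16:93919031-94008837 on the minus strand and holds the intronic RNA Gm49618, and Cldn8 is a 1-exon gene at chr16:88560828-88563183 on the same strand. Cldn7 is at chr11:69964779-69967885, Cldn11 at chr3:31149920-31164324, Cldn12 at chr5:5489537-5514958 and Cldn19 at chr4:119255414-119262438. Cldn19 has the antisense gene Gm12927 and Cldn3 the antisense gene Wbscr25.

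The 250 bases upstream of the starts of Cldn14, the member higher in HCs, and of the neighbours Cldn3 and Cldn4, which were lower there, are printed here because these 3 genes carry the main contrast of the results. The letters are RefSeq's for GRCm38.p6, 5′ to 3′ on the strand of the gene, and capitals mark the E-box CANNTG, the letters that basic helix-loop-helix factors such as Atoh1 bind, and ACAAAG or its reverse complement CTTTGT, a core that Sox factors bind. Cldn14 has 3 starts in the table, of which the outermost 2 are shown. The first Cldn14 window is chr16:94008838-94009087 and the second, at an inner start, is chr16:93929818-93930067. The Cldn3 window is chr5:134985964-134986213 and the Cldn4 window is chr5:134946935-134947184.
Cldn14, outer start: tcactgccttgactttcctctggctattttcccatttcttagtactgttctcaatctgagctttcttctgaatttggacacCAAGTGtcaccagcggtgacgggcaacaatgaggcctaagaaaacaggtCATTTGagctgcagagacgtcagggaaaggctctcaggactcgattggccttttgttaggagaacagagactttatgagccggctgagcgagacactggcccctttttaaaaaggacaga
Cldn14, inner start: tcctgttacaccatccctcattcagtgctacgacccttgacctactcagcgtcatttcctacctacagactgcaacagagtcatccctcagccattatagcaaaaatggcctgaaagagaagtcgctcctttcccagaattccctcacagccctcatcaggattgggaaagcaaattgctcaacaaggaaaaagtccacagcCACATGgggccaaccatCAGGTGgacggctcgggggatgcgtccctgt
Cldn3: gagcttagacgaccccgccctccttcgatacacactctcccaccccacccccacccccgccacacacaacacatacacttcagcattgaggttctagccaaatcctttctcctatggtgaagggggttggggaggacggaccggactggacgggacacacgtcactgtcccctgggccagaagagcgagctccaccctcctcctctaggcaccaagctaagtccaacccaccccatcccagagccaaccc
Cldn4: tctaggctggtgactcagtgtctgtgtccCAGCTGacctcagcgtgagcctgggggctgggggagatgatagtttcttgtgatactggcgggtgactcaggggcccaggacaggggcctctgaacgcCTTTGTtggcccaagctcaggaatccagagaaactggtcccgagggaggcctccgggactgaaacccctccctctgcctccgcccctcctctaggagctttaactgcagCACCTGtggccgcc
Both printed Cldn14 windows hold 2 E-boxes, CAAGTG and CATTTG 169 and 120 bases before the outer start and CACATG and CAGGTG 48 and 31 bases before the inner start, and the window of the innermost start, chr16:93929568-93929817, which overlaps an exon of Cldn14 and is not printed, holds 1. Cldn4 holds CAGCTG 221 and CACCTG 14 bases before its start and CTTTGT 123 bases before it, and Cldn3 holds neither motif. The motifs do not overlap in these windows. Of 32851 promoters of the same length, 66.2% hold CANNTG and 16.5% hold ACAAAG on either strand, so that an E-box in such a window is common. Cldn6 and Cldn7, also lower in HCs from E16 on, hold E-boxes too. The Cldn6 window has 1, and a Cldn7 window (chr11:69965171-69965420) has 4, while its other window has none. Of the 10 members, 8 were matched to a promoter entry, and Cldn8 and Cldn9 were not.

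Cldn9, Cldn3, Cldn6, Cldn7 and Cldn4 made up most of the claudin transcripts of the duct floor, and in HCs Cldn14 stood beside Cldn9 after birth. Summed over all claudins, the floor of the 4 ages, from E14 to P7, held 2844, 2043, 3436 and 6386 CPM on average, while HCs of these ages held 2648, 1467, 1704 and 1354 CPM. Cldn9 was the most abundant claudin of HCs, at 48.7% of their claudin transcripts at P1 and 62.2% at P7. Cldn14 made up 32.1% of the HC claudin transcripts at P1, 42.7% in OHCs, and 23.4% in P7 HCs. In the other floor epithelium Cldn4 went from 8.69% of the claudin transcripts at P1 to 37.4% at P7. These shares are descriptions, since a share falls when another claudin grows.

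**Figure D1:**
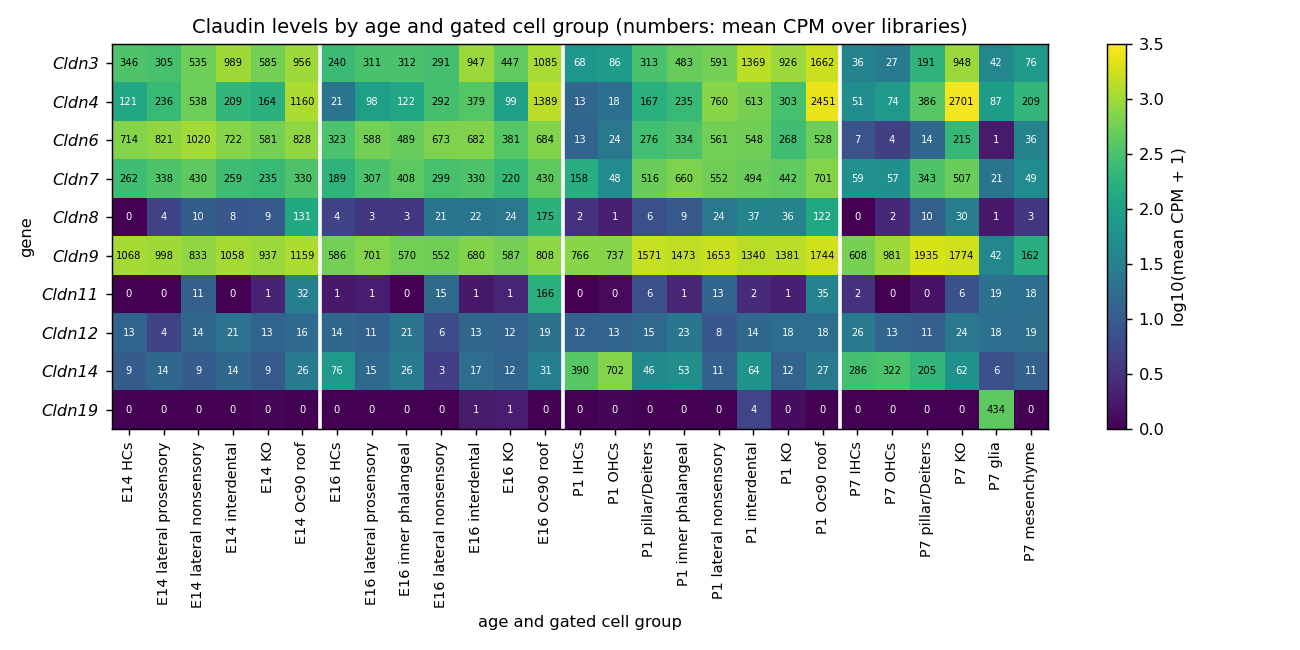
Mean level of the 10 claudins in each gated cell group at E14, E16, P1 and P7, with the colour on a log10(mean CPM + 1) scale and the mean CPM over libraries written in each tile. The Cldn14 row is highest in the outer hair cells of P1 (702 CPM) and Cldn19 is high in 1 column, the glia of P7.

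Cldn14 was the only member called higher in HCs than in the other floor epithelium, from E16 on. At E14 its HC level was 14.2 and 4.34 CPM in the 2 libraries, too low for the test, which took genes of 10 CPM or more on average. At E16 HCs held 86.1, 66.1 and 75.6 CPM against 12.3, 15.2 and 7.79 CPM in the other floor epithelium. At P1 HCs held 453, 617, 590 and 528 CPM against 19.8, 15.5, 25.9 and 16.0 CPM. At P7 the 2 HC values were 330 and 295 CPM and those of the other floor epithelium were 71.9 and 70.9 CPM. The groups did not overlap at any of these 3 ages, and the gap was widest at P1. For E16, P1 and P7 the log2 difference was 1.99 (SE 0.20), 4.25 (SE 0.12) and 1.98 (SE 0.16), with limma adjusted p values of 8.48e-07, 1.72e-09 and 2.42e-08. Differences are of log2(CPM + 10), which understates the change of genes with few transcripts.

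The share of single cells with a Cldn14 UMI was counted in HCs, KO cells and glia. After every cell was drawn down to 1500 UMIs, with shallower cells left out, 5.26% of E14 HCs, 2 of 38, had a Cldn14 UMI, with an exact 95% interval of 0.644 to 17.7%. The share was 9.44% of E16 HCs (7.13 to 12.2%), 49.0% of P1 HCs (45.9 to 52.1%) and 34.3% of P7 HCs (28.4 to 40.5%). In KO cells, a nonsensory group, it was 1.24%, 1.36%, 1.52% and 8.05% at the 4 ages, and in P7 glia 0.571%. Without drawing down, 84.5% of P1 HCs and 79.4% of P7 HCs had a UMI, against 4.44% and 23.3% of KO cells and 2.86% of P7 glia. Median depth at P7 was 6965.5 UMIs in HCs, 8106 in pillar and Deiters cells, 5071 in KO cells and 3292 in glia. These intervals cover counting error only.

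**Figure D2:**
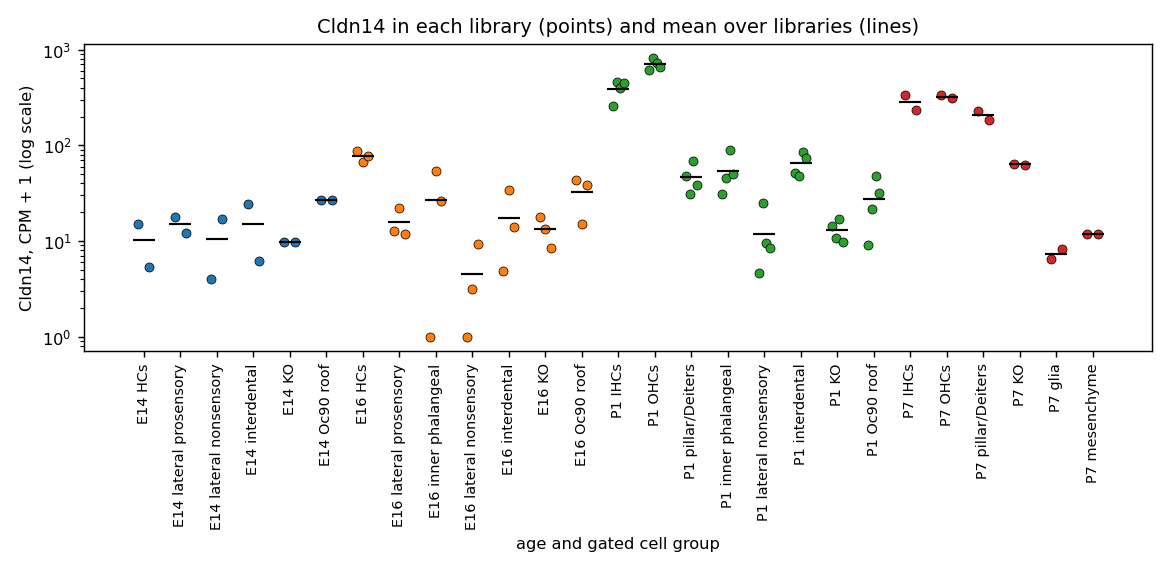
Cldn14 level in each gated cell group by age, as CPM + 1 on a log axis, with a point for each library and a line at the mean. The 4 outer hair cell libraries of P1 sit between 616 and 818 CPM, above every inner hair cell library and every library of the groups other than hair cells, and the P7 pillar and Deiters points (226 and 184 CPM) lie close under the hair cell points.

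Cldn3, Cldn4, Cldn6, Cldn7 and Cldn8 were lower in HCs than in the other floor epithelium from E16 on. KO cells made up 3962 of the 6880 cells of that group at E16, 9832 of 12825 at P1 and 1516 of 2748 at P7. Inner pillar cells were a subset of the pillar and Deiters cells. In P7 replicates 4 and 5 inner pillar cells held 101% and 158% of the HC level of Cldn3 and 115% and 237% of Cldn4. For Cldn6 these shares were 117% and 717%, and for Cldn7 223% and 138%. Low Cldn3 and Cldn4 were thus not particular to HCs at P7. At E14 2 of the 6 members tested were lower in HCs, where 4.51% of all genes tested were called lower and 3.73% higher. At E16 5 of 8 were lower and 1 was higher, with 19.5% of all genes called lower and 19.9% higher. At P1 6 of 8 were lower and 1 was higher, with 29.0% of all genes called lower and 40.6% higher. The P7 counts were again 6 lower and 1 higher of 8, with 28.2% of all genes lower and 36.4% higher. Cldn8 at E16, P1 and P7 and Cldn6 at P7 averaged under 10 CPM in HCs and were tested only because of their level in the other floor epithelium, so that they had to differ. Of the members at 10 CPM or more in both groups 4 of 7 were lower at E16, 5 of 7 at P1 and 4 of 6 at P7.

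At E14 HCs held 436 and 257 CPM of Cldn3 against 614 and 490 CPM in the other floor epithelium, and 181 and 61.0 CPM of Cldn4 against 291 and 244 CPM. The log2 differences were -0.70 (SE 0.21) and -1.25 (SE 0.30), with limma adjusted p of 0.0121 and 0.000673. Both calls were lost when the deepest cells and cells passing several gates were left out (Cldn3 -0.56, adjusted p = 0.315, and Cldn4 -1.23, adjusted p = 0.167). At this age the 2 libraries held 16 and 22 HCs, and the small p values rest on a spread pooled over all genes. Cldn6 differed by 0.07 at E14, Cldn7 by -0.14, Cldn9 by 0.20 and Cldn12 by -0.11, and none of these passed the test.

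At E16 the largest fall was that of Cldn4, with 17.6, 10.8 and 35.4 CPM in HCs and 96.4, 88.9 and 316 CPM in the other floor epithelium, a log2 difference of -2.35 (SE 0.19, limma adjusted p = 8.10e-08). For Cldn3 HCs held 171, 169 and 381 CPM against 371, 383 and 695 CPM, so that the groups overlapped through replicate 3, although HCs were lower within each of the 3 libraries. Cldn6 overlapped in the same way, with 274, 222 and 474 CPM in HCs against 345, 318 and 733 CPM. The log2 differences were -1.02 for Cldn3, -1.10 for Cldn8, -0.53 for Cldn7 and -0.48 for Cldn6. The Cldn7 call was lost with the mean of the deposited ln values (-0.20, limma adjusted p = 0.068). Cldn9 (-0.10) and Cldn12 (0.04) did not pass the test at E16. Without E16 replicate 3 Cldn9 was called lower as well (-0.31, limma adjusted p = 0.00568).

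At P1 the values of HCs and of the other floor epithelium did not overlap for Cldn3, Cldn6 or Cldn7. Cldn3 was at 102, 121, 134 and 136 CPM in HCs and at 622, 1198, 894 and 859 CPM in the other floor epithelium. Cldn6, a claudin of embryonic epithelia, was at 48.0, 58.1, 55.3 and 20.0 CPM against 252, 524, 317 and 122 CPM. Cldn7, a claudin of many epithelia, was at 97.5, 84.6, 103 and 129 CPM against 334, 497, 494 and 530 CPM. The log2 differences were -2.73 for Cldn3, -3.25 for Cldn4, -2.40 for Cldn6, -2.05 for Cldn7 and -1.89 for Cldn8, with limma adjusted p of at most 9.13e-07. Cldn9 was lower by less, at 777, 784, 815 and 942 CPM in HCs against 1237, 1431, 1313 and 1640 CPM, a log2 difference of -0.75 (SE 0.07, limma adjusted p = 3.83e-06). Cldn12, which is low everywhere, differed by -0.16 and did not pass.

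At P7 HCs held 40.6 and 15.7 CPM of Cldn3 against 963 and 770 CPM in the other floor epithelium, and 99.6 and 22.0 CPM of Cldn4 against 3074 and 2082 CPM. Glia of the same libraries, which are not epithelial, held 62.6 and 21.8 CPM of Cldn3 and 110 and 62.8 CPM of Cldn4. The HC values lay below the glial ones in both libraries, although glia were shallower. For Cldn3 41 and 16 UMIs were counted in 115 and 133 HCs and 21 and 26 UMIs in 47 and 128 glia, fewer per cell in HCs in both libraries. For Cldn4 111 and 27 UMIs were counted in these HCs and 30 and 54 in these glia, more per HC in replicate 4 and fewer in replicate 5. The levels of Cldn3 and Cldn4 in P7 HCs could thus not be told apart from background. Cldn7, at 69.3 and 56.2 CPM in HCs, was above the 22.2 and 20.3 CPM of glia, and Cldn9, at 947 and 734 CPM, was above their 47.6 and 36.2 CPM. The log2 differences from the other floor epithelium were -4.59 for Cldn3, -5.42 for Cldn4, -3.82 for Cldn6, -2.73 for Cldn7, -1.79 for Cldn8 and -1.09 for Cldn9, all with limma adjusted p of at most 6.97e-06. Cldn12 differed by -0.21 and did not pass. The marker genes of KO cells summed in P7 HCs to 31.5% and 21.6% of their level in KO cells, and in P1 HCs to 18.6%, 8.09%, 6.87% and 14.0%, and the part of such carry-over in the HC levels of the claudins was not tested at either age.

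**Figure D3:**
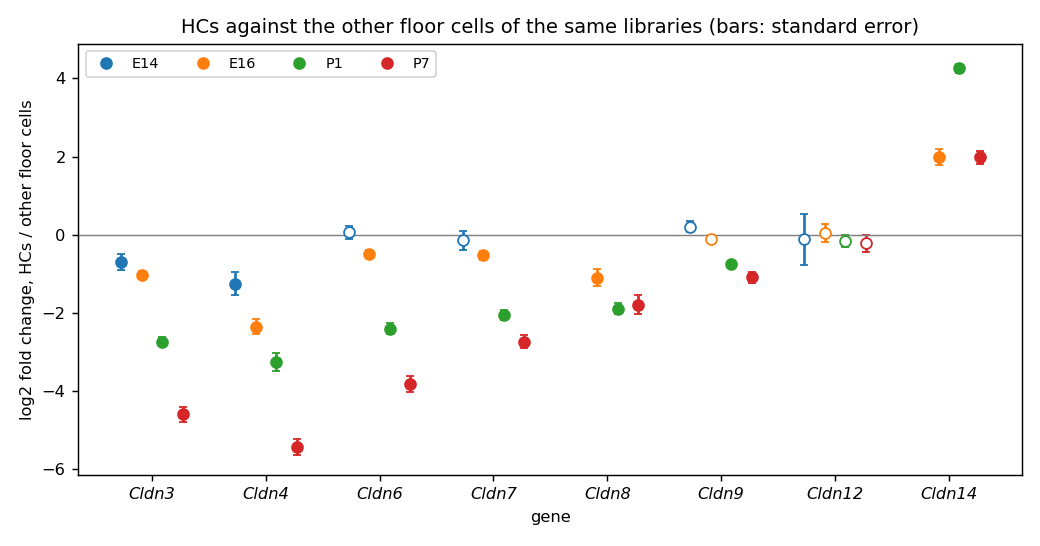
Log2 difference between hair cells and the other floor epithelium for 8 claudins at E14, E16, P1 and P7, with bars of 1 SE, filled points for values that passed the test and open points for those that did not. Cldn14 is the member called higher, largest at P1 (4.25), while Cldn4 reaches -5.42 at P7.

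The change of the HC difference between ages was tested directly, on the difference within each library. From E16 to P1 it moved by 2.26 (SE 0.22) for Cldn14, by -1.71 for Cldn3, by -1.92 for Cldn6, by -1.53 for Cldn7 and by -0.79 for Cldn8, with limma adjusted p of 0.000115, 0.000331, 0.000279, 0.00058 and 0.018. That is 5 members down and 1 up of 8 tested, counting Cldn9 (-0.65, adjusted p = 0.0355), where 14.5% of all genes moved up and 8.17% down. Cldn8 is among the 5, but averaged 4.27 CPM in E16 HCs and 1.15 CPM in P1 HCs. It was tested only through the other floor epithelium, at 20.1 and 32.1 CPM, so that its change is no support. The Cldn9 call was lost when any library but E16 replicate 1 was left out, with adjusted p of 0.0517 to 0.117, and the Cldn8 call without E16 replicate 1 (-0.66, adjusted p = 0.0606). The Cldn6 call was lost with the mean of ln values (-0.79, adjusted p = 0.0586). Cldn4 moved by -0.90 (adjusted p = 0.104), which passed without P1 replicate 1 (-1.21, adjusted p = 0.0246), and Cldn12 moved by -0.20 and was not called.

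From P1 to P7 the HC difference of Cldn14 shrank by 2.27 on the log2 scale (log2 change -2.27, limma adjusted p = 2.33e-05). The other floor epithelium held 15.5 to 25.9 CPM of Cldn14 at P1 and 70.9 and 71.9 CPM at P7. Cldn3 moved by -1.86, Cldn4 by -2.17, Cldn6 by -1.41 and Cldn7 by -0.68, and none moved up, where 17.2% of all genes moved up and 18.7% down. The values of Cldn3 and Cldn4 rest on P7 HC levels that could not be told apart from background. Cldn6 averaged 5.38 CPM in P7 HCs, under the 10 CPM of the filter. Without P7 replicate 5 the Cldn4 value was -1.56 (adjusted p = 0.0776), the Cldn6 value -1.06 (adjusted p = 0.0547) and the Cldn7 value -0.57 (adjusted p = 0.208). Cldn7 also lost its call without P1 replicates 1, 3 or 4 or P7 replicate 4, at -0.55, -0.71, -0.65 and -0.78. With the mean of the deposited ln values in place of log2(CPM + 10), Cldn3 moved by -0.28 (limma adjusted p = 0.395), Cldn6 by 0.19 (adjusted p = 0.680) and Cldn7 by -0.10 (adjusted p = 0.694), and none of these 3 was called. Cldn8 (0.10), Cldn9 (-0.34) and Cldn12 (-0.05) were not called. Age cannot be told apart from the day of capture in any of these comparisons.

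Within HCs themselves, Cldn14 was higher at P1 than at E16 by 2.69 (SE 0.22, limma adjusted p = 1.31e-06), without overlap. Cldn6 was lower at P1 by 2.59 on the same scale, with 274, 222 and 474 CPM at E16 and 48.0, 58.1, 55.3 and 20.0 CPM at P1 (log2 difference -2.59, adjusted p = 4.84e-05). Cldn7 was lower too (-0.77, adjusted p = 0.0481), a call kept only when P1 replicate 4 was the library left out, with values between -0.52 and -0.91 in the 6 fits that lost it. These 3 were the members called among 7 tested, with 10.3% of all genes higher and 6.12% lower. Cldn3 (-0.81, adjusted p = 0.0556), Cldn4 (0.05), Cldn9 (0.56) and Cldn12 (0.04) were not called, and Cldn9 was called higher without E16 replicate 3 (0.86, adjusted p = 0.0177).

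Between P1 and P7 HCs 3 of 7 members were called, all lower, with 9.51% of all genes higher and 11.6% lower. Cldn3 had a log2 difference of -1.88 (SE 0.30, limma adjusted p = 0.00052) and Cldn6, tested only through its P1 level, of -1.85 (adjusted p = 0.00264), which became -1.38 (adjusted p = 0.119) without P7 replicate 5. Cldn14 was lower by 0.78 (log2 difference -0.78, adjusted p = 0.0357), a call lost without P1 replicate 2 (-0.72), P1 replicate 3 (-0.74), P7 replicate 4 (-0.86) or P7 replicate 5 (-0.70). Cldn4 differed by 0.95 (adjusted p = 0.107), and by 1.84 (adjusted p = 0.0127) without P7 replicate 5. The P7 HC levels behind the Cldn3 and Cldn4 values could not be told apart from background. Cldn7 (-0.63), Cldn9 (0.01) and Cldn12 (0.17) were not called.

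Gated IHCs and OHCs differed in 2 claudins at P1, Cldn7 and Cldn14, and in different directions. Cells with at least 3 IHC or OHC markers were used, 173 IHCs and 500 OHCs of the 1035 HCs. The other P1 HCs fell in neither group, so that the values describe cells rich in subtype markers and not all IHCs or OHCs. Cldn14 was at 260, 461, 397 and 442 CPM in IHCs and at 616, 818, 720 and 653 CPM in OHCs. Cldn7 was at 177, 127, 148 and 179 CPM in IHCs and at 28.1, 32.7, 58.7 and 72.8 CPM in OHCs. Neither gene overlapped, and the direction was the same in 4 of 4 libraries. The log2 differences of IHCs from OHCs were -0.86 (SE 0.10) for Cldn14 and 1.59 (SE 0.19) for Cldn7, with limma adjusted p of 2.34e-08 and 2.82e-08, in a comparison where 5.0% of all genes were higher in IHCs and 6.56% lower. Drawn down to 1500 UMIs, 61.4% of OHCs (57.0 to 65.7%) and 38.2% of IHCs (30.9 to 45.8%) had a Cldn14 UMI at P1, and without drawing down 95.6% and 85.0%. Cldn3 (-0.27), Cldn4 (-0.30), Cldn6 (-0.64, adjusted p = 0.125), Cldn9 (0.05) and Cldn12 (-0.02) did not pass at P1.

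At P7 the same comparison called 1 of 6 members, lower in IHCs, with 6.04% of all genes lower and 5.61% higher. It used the 86 IHCs and 148 OHCs that passed these gates among 248 P7 HCs. Cldn9, whose loss in mice is known to cause hair cell loss, was at 634 and 581 CPM in IHCs and at 1138 and 824 CPM in OHCs, without overlap, a log2 difference of -0.67 (SE 0.14, limma adjusted p = 8.33e-05). Cldn14 overlapped between the groups at P7, at 336 and 235 CPM in IHCs and 332 and 312 CPM in OHCs (log2 difference -0.19, adjusted p = 0.667). Cldn7 differed by 0.07, Cldn3 by 0.46, Cldn4 by -0.20 and Cldn12 by 0.67, none of which passed. Whether the Cldn14 and Cldn7 differences changed between P1 and P7 was not tested.

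Pillar and Deiters cells, the supporting cells that hold the OHCs, had more Cldn14 and less Cldn3, Cldn4 and Cldn8 than KO cells at both postnatal ages. At P1 Cldn14 was at 46.4, 29.9, 68.0 and 38.0 CPM in pillar and Deiters cells against 13.4, 9.81, 16.1 and 8.73 CPM in KO cells, and at P7 at 226 and 184 CPM against 62.5 and 62.0 CPM. The groups did not overlap, and the log2 difference was 1.30 (SE 0.13) at P1 and 1.56 (SE 0.17) at P7, with limma adjusted p of 1.85e-05 and 8.94e-19. At P7 the inner pillar cells among them held 303 and 232 CPM. A Cldn14 UMI was found in 25.7% of P7 pillar and Deiters cells drawn down to 1500 UMIs (19.4 to 32.9%, and 64.6% without drawing down), against 6.20% at P1.

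The Cldn14 of these supporting cells was set beside the HC markers in the same cells. At P7 pillar and Deiters cells held 68.5% and 62.2% of the Cldn14 level of HCs, while the summed 16 HC markers stood at 5.73% and 7.08% of their HC level. In P7 KO cells Cldn14 stood at 18.9% and 21.0% of the HC level. At P1 the Cldn14 share in pillar and Deiters cells was 4.85 to 11.5% over the 4 libraries. The HC marker sum in them was then 0.80 to 2.80%. In P7 inner pillar cells Cldn14 stood at 91.8% and 78.6% of the HC level and the HC marker sum at 3.53% and 11.8%. The 16 markers are also the list that gates HCs, and cells rich in them were assigned to HCs. Their level in pillar and Deiters cells was thus held down by the gate, while that of Cldn14 was not. The part of carry-over from HCs in the Cldn14 of these cells was not tested.

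Of 8 members tested between pillar and Deiters and KO cells at P1, 3 were higher and 3 were lower, and 26.4% of all genes were higher and 17.1% lower. Cldn3 was at 224, 437, 351 and 238 CPM against 596, 1247, 937 and 924 CPM in KO cells (log2 difference -1.54, limma adjusted p = 5.90e-07), and Cldn8, a claudin of tight epithelia, differed by -1.51 (adjusted p = 4.60e-06), tested only through its level in KO cells. Cldn4 differed by -0.57 (adjusted p = 0.0366), which was lost without P1 replicate 2 or P1 replicate 4 (both -0.38, adjusted p = 0.186 and 0.166). Cldn7 was higher by 0.23, and lost its call without P1 replicate 1 (0.20) or P1 replicate 3 (0.17). Cldn9 was higher by 0.19, and lost its call without P1 replicate 1 (0.19), 2 (0.19) or 3 (0.13). Cldn6 (-0.03) and Cldn12 (-0.18) did not pass.

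At P7 1 of 8 members was higher in pillar and Deiters cells and 6 were lower, with 23.2% of all genes higher and 17.6% lower. Cldn6 had 18.6 and 9.35 CPM in pillar and Deiters cells against 227 and 203 CPM in KO cells, Cldn4 had 486 and 286 CPM against 3070 and 2333 CPM, and Cldn3 had 213 and 169 CPM against 1005 and 891 CPM. The log2 differences were -3.26, -2.81 and -2.26, and those of Cldn8, Cldn12 and Cldn7 were -0.96, -0.66 and -0.61. The Cldn12 call (limma adjusted p = 0.039) stayed in only 2 of 8 alternatives, with -0.53 (adjusted p = 0.172) after gating at 1500 UMIs and -0.07 (adjusted p = 0.168) with the mean of ln values. The Cldn7 call was lost with the mean of ln values (-0.44, adjusted p = 0.0695). Cldn9 was at 2230 and 1641 CPM against 1832 and 1716 CPM and did not pass (0.11). At 2 libraries per age the p values at P7 rest on a spread pooled over genes.

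In the embryo, lateral prosensory cells, the source of OHCs and their supporting cells, had less Cldn3 and more Cldn6 and Cldn7 than KO cells. At E14 Cldn3 was at 389 and 221 CPM against 671 and 498 CPM in KO cells, Cldn6 at 950 and 693 CPM against 594 and 568 CPM, and Cldn7 at 392 and 284 CPM against 251 and 220 CPM. Their log2 differences were -0.95, 0.48 and 0.49. Cldn4 was higher by 0.43 (limma adjusted p = 0.00406), and Cldn9 (0.09) and Cldn14 (0.34) did not pass. These 3 higher and 1 lower of 6 members stood beside 10.6% of all genes higher and 11.1% lower.

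At E16 4 of 8 members were called between the same groups, with 7.22% of all genes higher and 6.16% lower. Cldn6 was at 502, 448 and 813 CPM in the lateral prosensory cells against 276, 270 and 599 CPM in KO cells. Cldn6 was higher by 0.66 (limma adjusted p = 0.00114), Cldn7 was higher by 0.45 (adjusted p = 0.031), and Cldn3 and Cldn8 were lower (-0.49, adjusted p = 0.0357, and -1.43, adjusted p = 0.0174). The Cldn3 call was lost without E16 replicate 2 or E16 replicate 3 (both -0.38), the Cldn7 call without the same libraries (0.45 and 0.40), and the Cldn8 call, tested only through its level in KO cells, without E16 replicate 2 (-1.28). Cldn4 was at 0, 75.5 and 217 CPM against 61.1, 60.2 and 176 CPM in KO cells (-0.75, not called), and it was called lower without E16 replicate 2 (-1.27, adjusted p = 0.00346) or E16 replicate 3 (-1.27, adjusted p = 0.0284). Cldn9 (0.23), Cldn12 (-0.23) and Cldn14 (0.15) were not called, and Cldn9 was called higher without E16 replicate 1 (0.32, adjusted p = 0.00668).

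Lateral nonsensory cells, on the outer side of the sensory strip, had more Cldn4 and Cldn6 than KO cells, on its inner side, at E14 and P1. The contrast is with KO cells and not with the whole inner side. Interdental cells, at the inner edge, averaged 613 CPM of Cldn4 and 548 CPM of Cldn6 at P1, against 760 and 561 CPM in lateral nonsensory cells. Their Cldn4 was at 379 against 292 CPM at E16. At E14 they were lower, at 209 against 538 CPM for Cldn4 and 722 against 1020 CPM for Cldn6. At E14 Cldn4 was at 533 and 543 CPM against 189 and 139 CPM in KO cells, Cldn6 at 1028 and 1012 CPM against 594 and 568 CPM, and Cldn7 at 422 and 439 CPM against 251 and 220 CPM. These 3 of 6 members were called higher, with log2 differences of 1.67, 0.80 and 0.85, where 13.5% of all genes were higher and 12.9% lower. Cldn3 (-0.12), Cldn9 (-0.17) and Cldn12 (0.04) did not pass. The lateral cells passing the gate were deeper than the KO cells at this age, with medians of 9754 and 3281 UMIs, and after all cells were gated at 1500 UMIs these 3 calls stayed, with Cldn9 called lower as well (-0.20, limma adjusted p = 0.027).

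At E16 2 of 6 members were called between lateral nonsensory and KO cells, with 2.93% of all genes higher and 2.85% lower. Cldn6 was at 599, 370 and 1051 CPM in the lateral cells against 276, 270 and 599 CPM in KO cells, and Cldn3 at 210, 183 and 479 CPM against 340, 364 and 637 CPM. Cldn6 was higher by 0.78 (limma adjusted p = 0.0121) and Cldn3 was lower (-0.68, adjusted p = 0.0338), a call lost without E16 replicate 2 (-0.54, adjusted p = 0.226). Cldn4 ranged over 34.1, 182 and 661 CPM in the lateral cells (0.87, adjusted p = 0.29) and was called higher without E16 replicate 1 (1.65, adjusted p = 0.000679). Cldn7 (0.34), Cldn8 (-0.20) and Cldn9 (-0.09) did not pass.

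At P1 Cldn4 was at 274, 1292, 507 and 968 CPM in lateral nonsensory cells against 66.0, 583, 171 and 392 CPM in KO cells, and Cldn6 at 637, 774, 596 and 239 CPM against 203, 476, 279 and 114 CPM. Both ranges overlapped across libraries, yet the lateral cells were higher within each of the 4, and the log2 differences were 1.46 (SE 0.12, limma adjusted p = 2.74e-08) and 1.09 (SE 0.13, adjusted p = 2.49e-06). Cldn3 was lower (-0.70, adjusted p = 0.000475). In all 4 members were higher and 2 lower of 8 tested, with 12.2% of all genes higher and 9.45% lower. The calls of Cldn7 (0.32), Cldn9 (0.26) and Cldn12 (-0.61) were weak. Those of Cldn7 and Cldn9 were lost without P1 replicate 1, 2 or 3, with values of 0.29, 0.31 and 0.26 for Cldn7 and 0.26, 0.27 and 0.19 for Cldn9, and that of Cldn12, tested only through its level in KO cells, without any library (-0.56 to -0.66). Cldn8 (-0.55) and Cldn14 (-0.15) were not called.

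Interdental cells, at the inner edge of the duct, had the most Cldn3 of any floor group. They held 1121 and 857 CPM at E14, 682, 694 and 1465 CPM at E16 and 1260, 1691, 1302 and 1222 CPM at P1, values for which no test was planned. At P1 the order of the Cldn3 means was roof, interdental, KO, lateral nonsensory, inner phalangeal, and pillar and Deiters cells, each overlapping its neighbour in range. A gap with no overlap then followed to OHCs (86.2 CPM) and IHCs (67.8 CPM). Inner pillar cells, pooled here with the pillar and Deiters cells, were not ranked by themselves. They held 113 to 168% of the P1 Cldn3 level of all HCs, against 176 to 360% in the pooled group, so they lay nearer to HCs. For Cldn14 the P1 order was OHCs, IHCs, then interdental cells (64.1 CPM) and inner phalangeal cells (53.5 CPM), and the first 3 of these did not overlap. For Cldn9 the P1 order ran from roof cells (1744 CPM) to OHCs (737 CPM), and the only gap without overlap lay between interdental cells (1339.8 CPM) and IHCs (766 CPM).

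Roof cells were gated on at least 10 UMIs of Oc90, an otoconial protein that marks the roof of the cochlear duct. They had more of most claudins than the floor as a whole. Such cells numbered 896, 491 and 177 from E14 to P1, and the P1 libraries held 77, 17, 10 and 73. Of the roof markers Oc90, Otx2, Vmo1 and Wnt4 they had a median of 1 at E14, 2 at E16 and 3 at P1. At E14 the name thus rests mostly on Oc90, the gene of the gate. From E14 to P1 119, 56 and 18 of these cells passed several gates. At E14 8 of 9 members tested were higher and none was lower, with 19.6% of all genes higher and 23.7% lower. The E16 comparison had 7 of 9 higher, with 7.88% of all genes higher and 6.73% lower. In P1 roof cells 6 of 9 were higher and 1 was lower, with 6.17% of all genes higher and 7.75% lower. Cldn8, Cldn11 and Cldn14 at E14 and Cldn11 at E16 and P1 averaged under 10 CPM in the floor and were tested only because of their level in the roof, so that they had to differ. Of the members at 10 CPM or more in both groups 5 of 6 were higher at E14, 6 of 8 at E16 and 5 of 8 at P1.

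Cldn4 had the clearest roof level. It was at 1155 and 1165 CPM in E14 roof cells against 290 and 242 CPM in the floor, at 635, 846 and 2686 CPM against 85.0, 81.9 and 305 CPM at E16, and at 1246, 3001, 3323 and 2235 CPM against 119, 549, 183 and 381 CPM at P1. The groups did not overlap at any age, and the log2 differences were 2.09 (SE 0.06), 3.03 (SE 0.12) and 3.08 (SE 0.21), with limma adjusted p of 3.29e-25, 1.17e-07 and 3.41e-08. Cldn4 made up 32.4% of the claudin transcripts of P1 roof cells.

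Cldn8 and Cldn11, both at low levels in the floor as a whole, were higher in the roof too. Cldn8 was at 146 and 116 CPM in E14 roof cells against 9.77 and 8.41 CPM, at 194, 152 and 179 CPM against 20.4, 19.5 and 16.2 CPM at E16, and at 219, 177, 29.9 and 61.4 CPM against 44.2, 24.7, 27.5 and 23.0 CPM at P1. Cldn11 was at 22.2 and 41.4 CPM in E14 roof cells and at 217, 133 and 147 CPM at E16, where the floor held 2.07 to 3.92 CPM. At P1 Cldn11 was at 88.6, 28.9, 0 and 20.6 CPM in the roof. At P1 the lowest Cldn8 value of the roof lay inside the range of the floor, and the roof range overlapped that of interdental cells (mean 37.5 CPM). The log2 differences of Cldn8 were 2.87, 2.68 and 1.43 and those of Cldn11 were 1.67, 3.73 and 1.5, of which the E14 value of Cldn8 and all 3 of Cldn11 come from members tested only through the roof. At P1 the Cldn11 call (limma adjusted p = 0.036) was lost without P1 replicate 2 (1.43) or P1 replicate 4 (1.53), and the Cldn8 call (adjusted p = 0.0107) without P1 replicate 2 (1.09, adjusted p = 0.104).

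The remaining members differed less in the roof. Cldn3 was higher at the 3 ages (0.79, 1.19 and 0.97), as were Cldn6 (0.28, 0.58 and 0.73) and Cldn7 (0.20, 0.67 and 0.67). These values are against the floor average, and some floor groups had means above the roof. At E14 lateral nonsensory cells averaged 1020 CPM of Cldn6 and 430 CPM of Cldn7, against 828 and 330 CPM in the roof. Interdental cells averaged 989 CPM of Cldn3 at E14, against 956 CPM. At P1 both groups had more Cldn6 (561 and 548 CPM) than the roof (528 CPM). The roof mean was the highest in the other cases. At E16 the roof held 876, 714 and 1665 CPM of Cldn3 against 342, 364 and 683 CPM in the floor, and 484, 493 and 1074 CPM of Cldn6 against 335, 309 and 723 CPM. The P1 call of Cldn6 was lost without P1 replicate 2 (0.69) or P1 replicate 3 (0.55). Cldn9 was higher at E14 (0.32) and E16 (0.40), where the call was lost without E16 replicate 2 (0.34) or E16 replicate 3 (0.32), and was not called at P1 (0.33). Cldn14 was higher in the roof at E14 (1.08), where it was tested only through the roof, was not called at E16 (0.53) and was lower at P1 (-1.02, adjusted p = 0.0385), where the floor includes the HCs. That P1 call was lost without P1 replicate 1 (-0.83), 2 (-0.97) or 4 (-1.13). Cldn12 was not called at any age (0.18, 0.26 and -0.15).

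**Figure D4:**
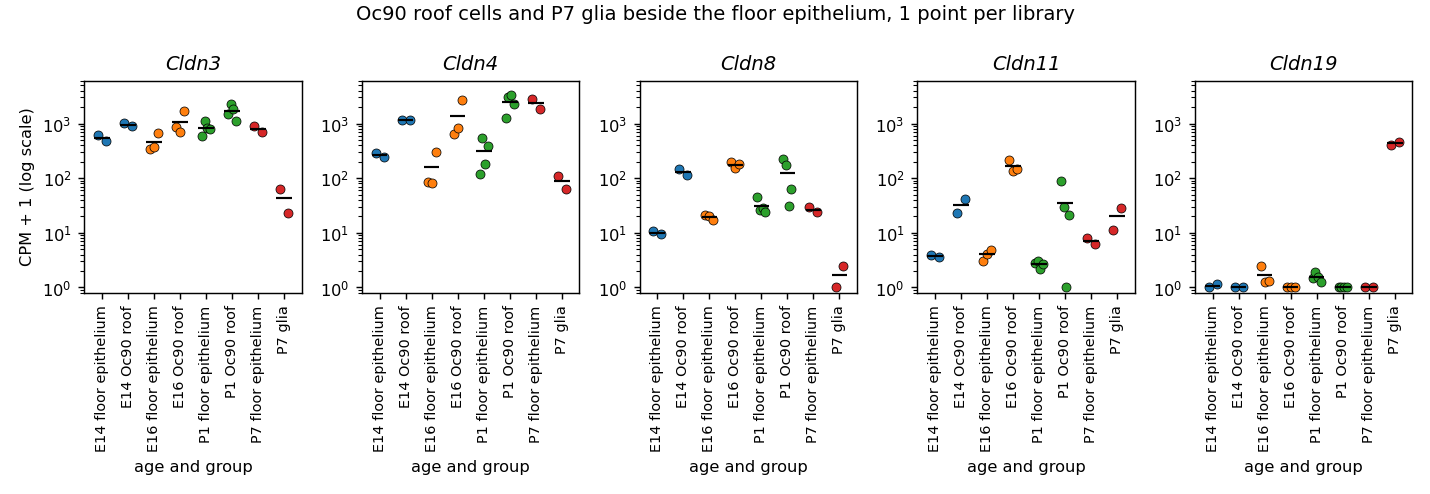
Cldn3, Cldn4, Cldn8, Cldn11 and Cldn19 in floor cells and Oc90-positive roof cells at E14, E16 and P1 and in floor cells and glia at P7, as CPM + 1 on a log axis with a point for each library. Cldn4 and Cldn8 are higher in the roof at each of the 3 ages, and Cldn19 is high in the 2 glial points (406 and 461 CPM).

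Cldn19 was a claudin of glia in these cells. The glia gated at P7 numbered 47 and 128 in the 2 libraries and had a median of 10 of their 11 markers. They held 406 and 461 CPM of Cldn19, 282 UMIs in all, and 98 of the 175 cells (56.0%) had a UMI of it. The other 3202 cells of P7 had 0 UMIs of Cldn19. Against the floor of 2996 cells, for which 3 UMIs would be 0.188 CPM, the level in glia was at least 2307-fold higher. Cldn19 reached the test only through the glia, so that its call there is no support. Cldn19 made up 62.1% ± 4.80 (SD, n = 2) of the claudin transcripts of glia, which summed to 697 CPM. It is the claudin known from Schwann cell and kidney tight junctions.

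Outside glia Cldn19 was detected in few cells, with a UMI in 2 of 4353 floor cells at E14, 8 of 7431 at E16 and 45 of 13860 at P1. At P1 it had a UMI in 28 of 906 interdental cells (3.09%) and in 14 of 9832 KO cells (0.142%). The interdental libraries held 4.56, 5.97, 6.02 and 0.793 CPM, all below the level that the test required.

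Of the 10 members 8 were called between glia and floor at P7, Cldn19 higher and 7 lower, where 16.5% of all genes were higher and 16.6% lower. Cldn6, Cldn8 and Cldn14 averaged under 10 CPM in glia and were tested only through the floor, and of the 5 members at 10 CPM or more in both groups 4 were lower. Cldn9 was at 47.6 and 36.2 CPM in glia against 1845 and 1578 CPM in the floor (log2 difference -5.06), and Cldn4 at 110 and 62.8 CPM against 2869 and 1876 CPM (-4.64). Cldn6 differed by -4.14, Cldn3 by -4.06, Cldn7 by -3.83, Cldn14 by -2.63 and Cldn8 by -1.74. Cldn11, the claudin of central myelin, was at 10.2 and 27.7 CPM against 6.98 and 5.26 CPM (0.78, limma adjusted p = 0.192), and Cldn12 differed by -0.17, and neither was called.

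Over the whole floor Cldn4 was the member that changed most with age. It held 290 and 242 CPM at E14, 85.0, 81.9 and 305 CPM at E16, 119, 549, 183 and 381 CPM at P1, and 2869 and 1876 CPM at P7. The P7 values lay above all others, and the log2 difference of P7 from P1 was 3.10 (SE 0.52, limma adjusted p = 0.00342), the single member called of 8, with 8.30% of all genes higher and 8.70% lower. Without P7 replicate 4 it was 2.79 (adjusted p = 0.0577). In P7 KO cells alone Cldn4 was at 3070 and 2333 CPM, and 62.1% of them had a UMI of it at 1500 UMIs, against 8.0% of glia. The make-up of the floor also changed with age, and these sums do not separate it from a change in each cell.

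**Figure D5:**
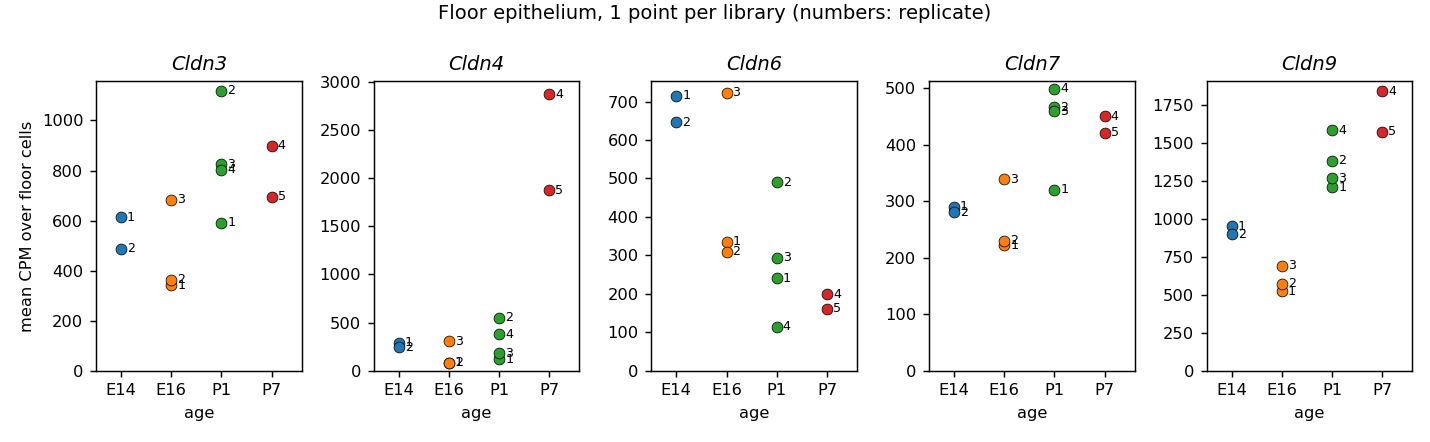
Mean level of Cldn3, Cldn4, Cldn6, Cldn7 and Cldn9 over all floor cells, with a point for each library marked by its replicate number, at E14, E16, P1 and P7. Cldn4 climbs to 2869 and 1876 CPM at P7, and E16 replicate 3 lies above the other E16 libraries for all 5 genes.

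Cldn9 and Cldn14 were higher in the P1 floor than in the E16 floor. The floor includes the HCs, in which Cldn14 was itself higher at P1 (log2 difference 2.69), and the floor without HCs was not tested between ages. Cldn9 was at 526, 573 and 691 CPM at E16 and at 1210.1, 1384, 1268 and 1585 CPM at P1, and Cldn14 at 23.0, 19.7 and 10.5 CPM and at 45.5, 59.8, 76.1 and 56.4 CPM. Neither overlapped, and the log2 differences were 1.18 (SE 0.19, limma adjusted p = 0.00377) and 1.34 (SE 0.22, adjusted p = 0.00465), with 3.77% of all genes higher and 3.47% lower. Cldn3 (0.87), Cldn7 (0.71), Cldn4 (0.96), Cldn6 (-0.72), Cldn8 (0.45) and Cldn12 (0.23) did not pass. Cldn3 and Cldn7 passed without E16 replicate 3 (1.18 and 0.90) and without P1 replicate 1 (1.02 and 0.85).

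Between E14 and E16 the calls changed with each library left out. With all libraries Cldn9 was lower at E16 (-0.64, limma adjusted p = 0.0292) and Cldn8, tested only through its E16 level, was higher (0.59, adjusted p = 0.0298), 2 of 8 members where 5.70% of all genes were higher and 14.3% lower. Without E16 replicate 3, 7 members were called, while the count over all genes went from 1788 to 4265, with Cldn4 at -1.56, Cldn6 at -1.05, Cldn3 at -0.62, Cldn7 at -0.32 and Cldn14 at 0.88 in addition. Without any other library of these ages neither Cldn8 nor Cldn9 was called, with values of 0.53 to 0.64 and of -0.55 to -0.68. With all libraries Cldn3 (-0.31), Cldn4 (-0.97), Cldn6 (-0.67), Cldn7 (-0.13), Cldn12 (-0.01) and Cldn14 (0.67, adjusted p = 0.0662) were not called. From P1 to P7 the members other than Cldn4 were not called, with differences of -0.04 for Cldn3, -0.47 for Cldn6, 0.02 for Cldn7, -0.13 for Cldn8, 0.33 for Cldn9, 0.21 for Cldn12 and 0.56 for Cldn14.

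Of 9 other claudins, Cldn23 was the highest in the floor at each age, with means of 91.4, 41.7, 91.0 and 735 CPM from E14 to P7. The floor means of the other 8 were at most 10.2 CPM, that of Cldn34c1 at E16. Cldn23 was lower in HCs than in the other floor epithelium, with log2 differences of -1.61 at E16, -2.19 at P1 and -4.73 at P7, all called. It was higher in the P7 floor than in the P1 floor (2.94, called), and lower in glia than in the floor (-4.49, called).

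Of a list of 20 other tight junction genes, 17 were tested in HCs. In E14 HCs 1 was higher and 1 lower, where 3.73% of all genes were higher and 4.51% lower. In E16 HCs 2 were higher and 6 lower, where 19.9% of all genes were higher and 19.5% lower. In P1 HCs 6 were higher and 8 lower, beside 40.6% and 29.0% of all genes, and in P7 HCs 6 each way, beside 36.4% and 28.2%. The list's median log2 difference was -0.09, -0.30, -0.27 and -0.31 at the 4 ages, against -0.10, -0.01, 0.12 and 0.14 over all genes, and nothing particular to the list was read from these counts. Ocln, occludin, was lower in HCs at E14 (-1.44), P1 (-1.54) and P7 (-1.75). Tjp1, the scaffold protein ZO-1, was higher at P1 (0.62) and P7 (1.18). Lsr was lower at P1 (-0.73) and P7 (-2.42), and Ildr1 was lower at E16 (-0.58), P1 (-0.43) and P7 (-0.55). Marveld2, tricellulin, was lower in HCs at P1 (-0.51) and higher at P7 (0.49), where HCs held 48.8 and 58.6 CPM against 31.1 and 39.9 CPM. Each of these named values passed the test, while at E14 Ildr1 (1.04), Marveld2 (-0.42), Lsr (-0.12) and Tjp1 (0.11) and at E16 Ocln (-0.30), Marveld2 (0.16), Lsr (0.10) and Tjp1 (0.08) did not.

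Pillar and Deiters cells had less Ocln than KO cells at P1 (-0.73) and P7 (-1.53), and more Ildr1 at P1 (0.53) and P7 (1.81), all called. Lsr was higher in them at P1 (0.22) and lower at P7 (-0.63), and Marveld2 was lower at P7 (-0.65), all called as well. Of the list 6 genes were higher and 4 lower of 16 tested at P1, beside 26.4% of all genes higher and 17.1% lower, and 6 higher and 5 lower of 15 at P7, beside 23.2% and 17.6%. P7 Ildr1 was at 175 and 235 CPM in them against 48.4 and 52.9 CPM in KO cells. In glia 2 of 16 tight junction genes tested were higher than in the floor and 11 were lower, where 16.5% of all genes were higher and 16.6% lower, with Ocln at -3.65, Lsr at -3.53, Ildr1 at -2.15 and Marveld2 at -1.40.

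Of the tight junction list, lateral nonsensory cells had 7 genes higher and 3 lower than KO cells of 18 tested at E14, where 13.5% of all genes were higher and 12.9% lower. At E16 they had 2 higher and 1 lower of 18, beside 2.93% and 2.85% of all genes, and at P1 7 higher and 1 lower of 17, beside 12.2% and 9.45%. In these cells Lsr was at 0.36 at E14 and 0.88 at P1, both called, and 0.18 at E16, not called. At E14 Marveld2 (0.76) and Tjp1 (0.60) were also called higher and Ildr1 (-0.74) lower. Of 17 genes tested, lateral prosensory cells had 5 higher and 2 lower at E14, beside 10.6% and 11.1% of all genes, and 3 higher and 1 lower at E16, beside 7.22% and 6.16%, with Marveld2 at 0.72 at E14, called, and -0.33 at E16, not called. In the roof 5 genes were higher and 1 lower of 18 at E14, where 19.6% of all genes were higher and 23.7% lower. At E16 2 were higher and 1 lower of 18, beside 7.88% and 6.73% of all genes, and at P1 2 each way of 17, beside 6.17% and 7.75%. Ocln was higher in the roof at E14 (0.35) and E16 (0.82) and not called at P1 (0.21), Marveld2 was higher at E14 (0.35), and Ildr1 was lower at P1 (-1.10). IHCs of P1 had more of 1 gene of 17 than OHCs, beside 5.0% of all genes higher and 6.56% lower, and IHCs of P7 had less of 3 of 16, beside 5.61% and 6.04%, Ocln (-1.32) and Tjp1 (-1.53) among them. Across ages the floor had Tjp1 higher at E16 than at E14 (0.76) and lower at P1 than at E16 (-1.04), and Ocln higher at P1 than at E16 (1.02), all called.

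The genes whose pattern was most like that of a member were found by Pearson's r over 30 group means, of log2(CPM + 10), among 7441 genes that reached 50 CPM. The groups share libraries and depth, so these are descriptions. Cldn7 was nearest to Krt8 (r = 0.94), Epcam (r = 0.92) and Lsr (r = 0.90). Cldn3 was nearest to Prr13 (r = 0.89), Wfdc2 (r = 0.89) and Slc9a3r1 (r = 0.88), Cldn4 to F3 (r = 0.91), Klk8 (r = 0.88) and Vamp8 (r = 0.88), and Cldn9 to Spint1 (r = 0.91), Spint2 (r = 0.88) and Crb3 (r = 0.88). Cldn6 was nearest to H3f3a (r = 0.89), Crabp2 (r = 0.89) and Cd24a (r = 0.87), and Cldn8 to Nrtn (r = 0.88), Lrp2 (r = 0.86) and F3 (r = 0.85). Cldn11 was nearest to Mme (r = 0.89), Sgk3 (r = 0.87) and Thsd7a (r = 0.86), and Cldn14 to 5730508B09Rik (r = 0.86), Hebp2 (r = 0.86) and Rab11fip1 (r = 0.85). Cldn19 was nearest to Gjc3, Ecscr and Dusp15, which rests on the glial column alone, and Cldn12 stayed below 50 CPM in every group and was not ranked. Within the neighbouring pairs r was 0.69 for Cldn3 and Cldn4 and 0.41 for Cldn6 and Cldn9, while Cldn3 and Cldn7, on different chromosomes, had r = 0.83.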

How the data were processed

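The processed tables hold 4 ages of mouse cochlear duct cells, 11 libraries in all. Per the labels and the study's methods, the authors counted UMIs with Cell Ranger 2.1.1 on mm10 and normalized them with Seurat 2.0. The deposited values are on a natural log scale, ln(1 + 10000 × the UMI's share of its cell), and doublet calls were not redone here. UMIs were worked back from them (whole within 2%), and every column of cells was mapped to a library by its name, with 0 columns unused. Cells of a library were gated by markers, a cell passing several gates going to the gate of largest share, and levels were averaged per group and library in CPM. Gate cutoffs were set after marker counts, but not claudin levels, had been seen. The members and gene lists were chosen with earlier results of these data known. The P7 lateral nonsensory gate was not used, as its leading genes were mostly KO markers.

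Groups were compared with limma 3.58.1 (R 4.3.3) on log2(CPM + 10), with a mean trend and the library as a block for groups of the same libraries, over genes of at least 10 CPM on average. P values were Benjamini-Hochberg adjusted over all genes tested, with a threshold of 0.05. Overlap of library values between groups was noted for named genes only. The share of all genes without overlap was not counted, so that a lack of overlap is a description, above all at 2 libraries per age. Groups of the same library were paired, since their deviations from group means correlated at 0.323 to 0.814. The change of the hair cell difference with age was fitted on per-library differences without a trend, and was added after the data had been seen, as were a gate on cells drawn down to 1500 UMIs and the glial levels as a background. With 2 libraries per age, 1 residual degree of freedom per gene was left and the spread came mostly from all genes. Libraries pool animals, and p values measure the spread between these libraries as far as limma weighs it against the spread pooled over genes. The prior degrees of freedom were infinite for E14 HCs, E14 lateral nonsensory and lateral prosensory cells, P7 IHCs against OHCs and P7 pillar and Deiters cells. In these comparisons SEs and p values came from the pooled spread alone, and a gene's own spread had no weight. All 10 members were named in each comparison in which they were tested, the other claudins and the tight junction list by counts with set genes named, and 3 genes nearest in pattern per member. A gene of the tight junction list is not reported here by name. The fits were tested on simulated data. Sequences were read from RefSeq for GRCm38.p6 and positions from a GENCODE annotation of GRCm38, the build that mm10 names. Alternatives were another pseudocount, no filter, summed UMIs, the mean of ln values, a stricter gate, no deepest or doubly gated cells, no or another block, and each library left out. Python 3.11.15, numpy 2.4.6, scipy 1.17.1, pandas 2.3.3 and matplotlib 3.10.9 were used.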

Additional observations from a re-analysis of the deposited data

Results flagged for a closer look

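In 4 of 83 sets of 4 libraries a claudin level lay far from the others, where chance puts about 1 in 20. Cldn9 was at 2392 CPM in the roof cells of P1 replicate 3, a library with 10 such cells, and at 1334 CPM in the pillar and Deiters cells of P1 replicate 1, the lowest of 4. Cldn8 was at 76.6 CPM in the interdental cells of P1 replicate 1, against 22.2 to 26.9 CPM in the others, and Cldn4 at 26.9 CPM in the IHCs of P1 replicate 3, 13 UMIs in 43 cells, against 7.72 to 10.6 CPM in the others.

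The difference between HCs and the other floor epithelium changed with age, by a limma test of the change itself. From E16 to P1 the change was 2.26 for Cldn14, -1.71 for Cldn3, -1.92 for Cldn6, -1.53 for Cldn7, -0.79 for Cldn8 and -0.65 for Cldn9. From P1 to P7 it was -2.27 for Cldn14, -1.86 for Cldn3, -2.17 for Cldn4, -1.41 for Cldn6 and -0.68 for Cldn7. Of these members Cldn8 was tested only through the other floor epithelium, and Cldn6 averaged under 10 CPM in P7 HCs. Over the alternatives the Cldn14 change ran from 1.79 to 2.40 between E16 and P1 and from -0.89 to -2.66 between P1 and P7, and neither call was lost. Both changes use the same P1 libraries.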

How the results depend on the processing

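The 109 called values were recomputed 1166 times in all. The direction and the call stayed in 984 of these, the call was lost in 181, and the direction turned in 1, where the mean of ln values gave 0.19 (limma adjusted p = 0.68) for the P7 against P1 change of the Cldn6 HC difference. The cause was not tested. Calls that the mean of ln values ended include those of Cldn7 in E16 HCs, Cldn4 in P1 pillar and Deiters cells, Cldn7 and Cldn12 in P7 pillar and Deiters cells, Cldn3 in E16 lateral prosensory and lateral nonsensory cells, Cldn14 in P1 roof cells and in P7 against P1 HCs, and Cldn3, Cldn6 and Cldn7 in the HC difference across ages. All Cldn14 calls in HCs against the other floor epithelium stayed under every alternative run.

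The number of members called moved as follows. For E14 HCs it was 2, and 1 with a pseudocount of 1 CPM, 1 with the mean of ln values, 4 with no filter, 0 without the deepest cells and cells of 2 gates and 0 with no replicate block. With no replicate block, which ignores that both groups share libraries, it went from 2 to 1 for P1 IHCs against OHCs, from 6 to 3 for P1 pillar and Deiters cells, from 1 to 0 for P7 IHCs against OHCs, from 7 to 3 for E16 roof cells, from 7 to 2 for P1 roof cells, from 2 to 0 and from 6 to 0 for E16 and P1 lateral nonsensory cells, and from 4 to 0 and from 4 to 1 for E14 and E16 lateral prosensory cells. With a pseudocount of 1 CPM it was 0 for E16 lateral nonsensory, 4 for P1 roof and 2 for E16 lateral prosensory cells. With no filter it was 0, 4 and 1 for these, 3 for P1 lateral nonsensory cells, 0 for the floor at E16 against E14 and 2 for the floor at P7 against P1. The stricter gate gave 2 for E16 lateral prosensory cells. The mean of ln values gave 5 for the floor at P1 against E16, 2 for the floor at P7 against P1 and 2 for the P7 against P1 change of the HC difference.

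Leaving out each library in turn gave 1 to 4 members for E16 lateral nonsensory cells, 3 to 6 for P1 roof cells, 3 to 5 for P1 lateral nonsensory cells, 2 to 5 for E16 lateral prosensory cells, 0 to 7 for the floor at E16 against E14, 2 to 4 at P1 against E16 and 0 to 1 at P7 against P1, and 2 to 5 for the P7 against P1 change of the HC difference. It gave 6 to 7 for E16 HCs and 7 for P1 HCs. Within E14 or P7 alone it leaves 1 library per group and could not be fitted. Replicate numbers do not pair the libraries of E14 with those of E16 or those of E16 with those of P1 (correlations of -0.323 to 0.0895). No paired analysis was possible between P1 and P7 because they share 1 number only. With the replicate number as a replicate block across ages, 7 members were called for the floor at E16 against E14 in place of 2, and 4282 genes in place of 1788. No E14 library shares the number of E16 replicate 3, so this block takes that library out of the comparison.

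Counts over all genes moved by over 1.5 times in many comparisons. For E14 HCs the count went from 724 to 198 with no replicate block and 3970 with no filter, and for P1 IHCs against OHCs from 1024 to 248 with no replicate block. For the floor it went from 1788 to 97 without E14 replicate 2 and 4417 with the mean of ln values at E16 against E14, from 638 to 201 without E16 replicate 1 and 1846 with the mean of ln values at P1 against E16, and from 1481 to 423 without P7 replicate 4 and 2583 with no filter at P7 against P1. E14 had 16 and 22 HCs in its libraries, and E14 and P7 had 2 libraries each.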
